A study of Mus musculus with 8 samples.

Results

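The genes described here are 10 core genes of the circadian clock that fall into a pair of arms with opposite daily phase: Dbp, Tef, Per1, Per2, Per3, Nr1d1 and Nr1d2 form the Dbp-phase arm, and Arntl, Npas2 and Nfil3 form the Arntl-phase arm. Every mouse probe whose RefSeq accession belonged to one of these genes was taken, which gave 18 probes among the 35078 mouse probes of the array. In colon epithelium collected 24 hours after PhIP, all 7 Dbp-phase genes had a higher mean and all 3 Arntl-phase genes a lower mean than in PBS mice. For Nr1d2 this depended on which probe was used. With 5 PhIP and 3 PBS mice the median log2 fold change was 0.70 in the Dbp-phase arm and -1.18 in the Arntl-phase arm, beside 0.01 over all 15880 features tested. Without 1 scan of low signal, on which Arntl and Npas2 were not found above background, these medians were 0.92 and -0.77. No member passed limma's Benjamini-Hochberg adjusted p of 0.05, and 1 of the 3 PBS mice lay among the PhIP mice for Dbp, Per2 and all 3 Arntl-phase genes, and next to them for Per3.

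The study compared 5 male mice given PhIP once by gavage at 200 mg/kg with 3 male control mice given PBS. All 8 mice were hCYP1A mice, which carry the human CYP1A genes, on a C57BL/6 background, ate AIN93M diet and were 8 weeks old at gavage. PhIP is a mutagen that forms when meat is cooked at high heat, and human CYP1A2 is the enzyme that begins its conversion to a DNA-binding form. Each colon was scraped 24 hours after gavage and its RNA was read on 1 array, so n counts mice. The labels do not state the hour of the day at collection, and its part in the differences below was not tested.

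In the clock of mammalian cells, ARNTL (BMAL1) pairs with CLOCK or its relative NPAS2 and switches on genes through E-boxes, among them the Per, Nr1d, Dbp and Tef genes. PER proteins, with CRY proteins, then hold ARNTL and CLOCK back, and NR1D1 and NR1D2 (REV-ERB alpha and beta) repress Arntl, Npas2 and Nfil3 through the RORE. DBP and TEF activate genes at D-boxes, where NFIL3 (E4BP4) represses them. Since one arm represses the other, transcripts of the Dbp-phase arm peak in most tissues, the gut included, at about the time of day at which those of the Arntl-phase arm are low.

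Promoters of members that hold one of these motifs are shown because the loop between the arms acts through them. RefSeq's promoter table (build GRCm38.p6) matched 9 of the 10 genes with 12 promoters, each 250 bases before to 50 bases after a start site, and gave none for Per2. Both strands were searched for the E-box CACGTG, the E-prime box CACGTT, the D-box (TTATGTAA or TTACGTAA) and the RORE, and no match overlapped another. The E-box was present in 7.15% of all 32851 promoters of the table, the E-prime box in 4.68%, the D-box in 1.06% and the RORE in 0.384%. Of the 10 members, Tef and Per1 held an E-box, Nr1d1 an E-prime box, Per3 a D-box at 2 places and Arntl a RORE. The stretches below are the 250 bases before the start site, 5′ to 3′ on the gene's strand, and for Arntl a window of 30 bases after it, with the motif in capitals.
Per1, GRCm38.p6 chr11:69098699-69098948, plus strand: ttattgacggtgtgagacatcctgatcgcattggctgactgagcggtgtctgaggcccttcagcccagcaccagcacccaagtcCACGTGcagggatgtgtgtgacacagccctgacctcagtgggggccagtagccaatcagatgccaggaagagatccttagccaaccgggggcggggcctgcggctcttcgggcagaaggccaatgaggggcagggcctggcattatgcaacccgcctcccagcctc
Tef, GRCm38.p6 chr15:81811164-81811413, plus strand: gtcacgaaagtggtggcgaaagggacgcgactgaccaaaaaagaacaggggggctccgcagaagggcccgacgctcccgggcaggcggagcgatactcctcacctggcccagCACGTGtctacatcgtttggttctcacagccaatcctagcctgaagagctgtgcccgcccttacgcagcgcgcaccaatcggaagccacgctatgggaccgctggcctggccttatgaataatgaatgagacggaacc
Per3, GRCm38.p6 chr4:151044666-151044915, minus strand: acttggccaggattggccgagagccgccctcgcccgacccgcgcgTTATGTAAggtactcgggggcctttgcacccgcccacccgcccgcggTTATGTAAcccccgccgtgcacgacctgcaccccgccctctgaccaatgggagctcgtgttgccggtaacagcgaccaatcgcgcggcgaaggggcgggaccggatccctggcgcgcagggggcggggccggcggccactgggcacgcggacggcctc
Nr1d1, GRCm38.p6 chr11:98775378-98775627, minus strand: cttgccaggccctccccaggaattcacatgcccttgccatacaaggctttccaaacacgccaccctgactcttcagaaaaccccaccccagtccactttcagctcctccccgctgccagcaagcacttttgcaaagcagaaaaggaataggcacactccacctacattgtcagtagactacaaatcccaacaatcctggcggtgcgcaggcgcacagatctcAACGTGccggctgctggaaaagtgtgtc
Arntl, GRCm38.p6 chr7:113207527-113207556, plus strand: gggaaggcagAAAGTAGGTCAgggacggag
The E-box began 166 bases before the start site in Per1 and 138 bases before it in the Tef promoter shown, while a second Tef promoter had one 127 bases before its start. The D-boxes of Per3 began 205 and 158 bases before the start, and the E-prime box of Nr1d1, which reads AACGTG on the gene's strand, 28 bases before it. In Arntl the RORE lay in the second of its promoters and began at position 27, counting the start site as 1. The promoters of Dbp, Nr1d2, Npas2 and Nfil3 held none of these letters in the windows searched.

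Values are background-subtracted spot intensities in the red channel, quantile normalized between arrays and given in linear units unless log2 is stated. They compare mice for 1 probe and not 1 gene with another. The scanner software found between 53.8% and 57.1% of mouse probes above background on 7 arrays. The array of PhIP mouse 1 was scanned at a photomultiplier gain of 700 in place of 650, and 21.4% of its probes were found. On that scan 6 of the 10 members (Per1, Per2, Per3, Nr1d2, Arntl and Npas2) were not found above background, so each result is given with all 8 arrays and with 7, without that scan. The numbers in the scans' image names fell in 2 ranges: all 5 PhIP mice and PBS mouse 3 were in the second, and PBS mice 1 and 2 in the first. The scans of PhIP mice 1 and 3 and of PBS mice 1 and 2 were marked as re-dipped.

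Dbp, which encodes a D-box activator and is one of the transcripts with the widest daily swing, measured 805, 1173, 1657, 1849 and 1657 in PhIP mice 1 to 5, against 578, 491 and 1205 in PBS mice 1 to 3. PBS mouse 3 was above PhIP mice 1 and 2, so the groups overlapped. The log2 fold change was 0.97 ± 0.37 (SE, n = 5 PhIP and 3 PBS) with a limma adjusted p of 0.837, and without the gain-700 scan it was 1.15 ± 0.31 with a limma adjusted p of 0.347.

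Tef, the other D-box activator of the arm, measured 5069, 2765, 3389, 3088 and 3039 in PhIP mice, against 1255, 1604 and 2095 in PBS mice. Every PhIP mouse was above every PBS mouse after normalization. The 5069 is from the gain-700 scan, where Tef measured 1485 before normalization, against 1312, 1856 and 2219 in PBS mice. Tef ranked first by p among the members in both fits, with a log2 fold change of 1.07 ± 0.24 (limma adjusted p = 0.837), or 0.92 ± 0.17 without the gain-700 scan (limma adjusted p = 0.220). Without that scan the change is 1.89-fold, with a 95% confidence interval of 0.53 to 1.30 on the log2 scale.

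Per1, a repressor of the clock that also responds quickly to light and hormones, measured 47.3, 336, 372, 336 and 358 in PhIP mice, against 157, 237 and 277 in PBS mice. The value of 47.3 is that of the gain-700 scan, where Per1 was not found above background, and the other PhIP mice were above all PBS mice. That scan decided the size: the log2 fold change was 0.11 ± 0.70 with it (limma adjusted p = 0.955) and 0.68 ± 0.19 without it (limma adjusted p = 0.372).

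Per2, a repressor of the same family and a required part of the mouse clock, measured 149, 82.4, 156, 139 and 207 in PhIP mice, against 38.5, 42.9 and 143 in PBS mice. The 149 is from the gain-700 scan, where Per2 was not found above background and measured 15 before normalization. PBS mice 1 and 2 were low, and PBS mouse 3 stood among the PhIP mice. Per2 had a log2 fold change of 1.19 ± 0.51 (limma adjusted p = 0.837), or 1.17 ± 0.51 without the gain-700 scan (limma adjusted p = 0.540). Per2 had the largest spread of the Dbp-phase genes among PBS mice, with an SD of 1.05 on the log2 scale (n = 3).

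Per3, the third member of the family, measured 95.4, 273, 279, 296 and 314 in PhIP mice, against 112, 112 and 270 in PBS mice. The 4 PhIP mice scanned at the common gain were within 1.15-fold of each other, and PBS mouse 3 lay just below the lowest of them. This gave a log2 fold change of 0.63 ± 0.50 (limma adjusted p = 0.837), or 0.95 ± 0.31 without the gain-700 scan (limma adjusted p = 0.432).

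Nr1d1, the haem-binding repressor REV-ERB alpha, measured 584, 720, 543, 559 and 481 in PhIP mice, against 423, 280 and 370 in PBS mice. The 584 is from the gain-700 scan, where Nr1d1 measured 88 before normalization, against 447, 333 and 408 in PBS mice. Each PhIP mouse was above all PBS mice after normalization, and PBS mouse 3 lay between the other PBS mice. Its log2 fold change was 0.70 ± 0.20 with all arrays (limma adjusted p = 0.837) and 0.69 ± 0.18 without the gain-700 scan (limma adjusted p = 0.347).

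Nr1d2, the related repressor REV-ERB beta, measured 227, 336, 374, 368 and 420 in PhIP mice, against 224, 176 and 268 in PBS mice. PhIP mouse 1, where the probe was not found above background, was below PBS mouse 3, and the other PhIP mice were above all PBS mice. The log2 fold change was 0.62 ± 0.27 (limma adjusted p = 0.837), or 0.76 ± 0.17 without that scan (limma adjusted p = 0.279).

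Arntl, the activator at the centre of the loop, measured 21.3, 216, 128, 98.9 and 93.5 in PhIP mice, against 294, 260 and 131 in PBS mice. The lowest value is the floor set for dim probes and comes from the gain-700 scan. PhIP mice 3, 4 and 5 were below all PBS mice, PhIP mouse 2 lay between PBS mice 2 and 3, and PBS mouse 3 was close to PhIP mouse 3. The log2 fold change was -1.28 ± 0.71 (limma adjusted p = 0.837), and -0.77 ± 0.38 without the gain-700 scan (limma adjusted p = 0.590), a 1.71-fold lower mean.

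Npas2, the partner of ARNTL that can stand in for CLOCK, measured 23.9, 105, 66.8, 59.4 and 66.6 in PhIP mice, against 155, 152 and 96.0 in PBS mice. The 23.9 is from the gain-700 scan, where Npas2 was not found above background. All PhIP mice except mouse 2 were below all PBS mice. Npas2 had a log2 fold change of -1.18 ± 0.48 (limma adjusted p = 0.837), and -0.86 ± 0.27 without the gain-700 scan (limma adjusted p = 0.417).

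Nfil3, the D-box repressor that opposes Dbp and Tef, measured 491, 607, 511, 661 and 481 in PhIP mice, against 1024, 959 and 646 in PBS mice. All PhIP mice except mouse 4 were below all PBS mice, and PhIP mouse 4 was just above PBS mouse 3. Nfil3 was found on all 8 arrays, and its log2 fold change of -0.65 ± 0.21 (limma adjusted p = 0.837) was -0.61 ± 0.19 without the gain-700 scan (limma adjusted p = 0.417).

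**Figure D1:**
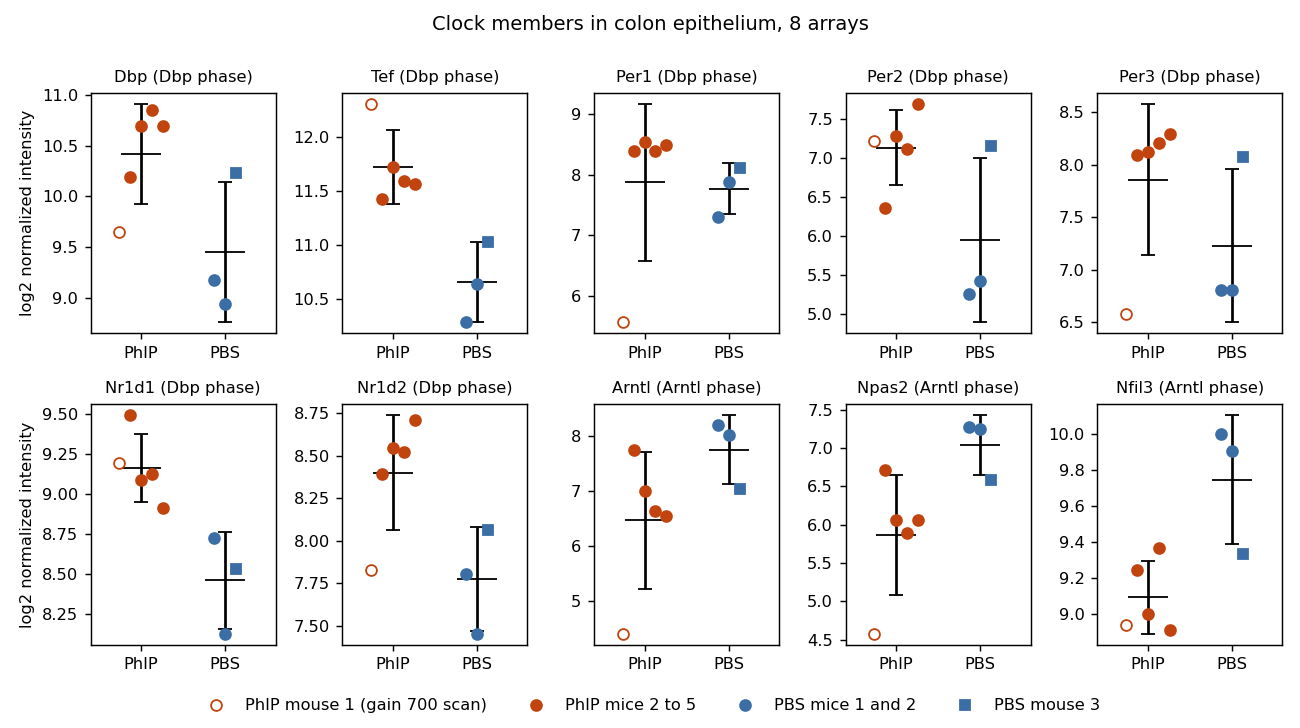
Log2 normalized intensity (vertical axis, a scale of its own for each gene) of the 10 members in 5 PhIP and 3 PBS mice, 1 point per mouse, with the group mean and SD as bars. PhIP mouse 1 (open circles) is far below the other PhIP mice for Per1, Per3, Arntl and Npas2. PBS mouse 3 (squares) lies at or near the PhIP mice for Dbp, Per2, Per3, Arntl, Npas2 and Nfil3.

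After adjustment no member was called, at 0 of 10 with 8 arrays, where 0.0126% of 15880 features passed limma's adjusted threshold, and 0 of 10 called with 7 arrays, where 0.0315% of 15868 did. At an unadjusted limma p below 0.05 the count was 7 of 10 members with 8 arrays, beside 3.08% of all features, and 8 of 10 with 7 arrays, beside 9.26%. With all arrays the 3 that missed it were Per1, Per3 and Arntl, and without the gain-700 scan the 2 were Per2 and Arntl. The groups did not overlap for 2 of 10 members with 8 arrays (Tef and Nr1d1), beside 5.73% of all features. Before normalization PhIP mouse 1 was not above all PBS mice for either gene. Without the gain-700 scan the groups did not overlap for 5 of 10 (Tef, Per1, Per3, Nr1d1 and Nr1d2), beside 8.87%, and for 0 of the 3 Arntl-phase genes. Nr1d2 enters this count, and both counts at an unadjusted p, through a probe that was the brighter one in PhIP mice only. Its other probe was at -0.11 ± 0.19 without the gain-700 scan, with overlapping groups. The median fold changes without that scan were 0.92 in the Dbp-phase arm, -0.77 in the Arntl-phase arm and 0.03 over all features, on the log2 scale.

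**Figure D2:**
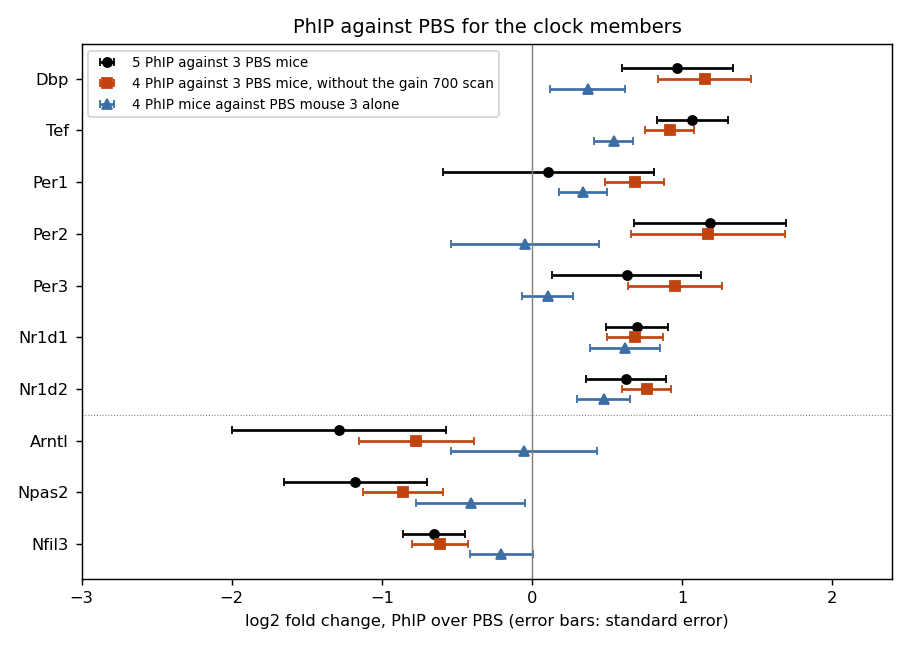
Log2 fold change (horizontal axis, PhIP over PBS) of each member with its standard error, with all 8 mice (circles), without the gain-700 scan (squares) and for 4 PhIP mice against PBS mouse 3 alone (triangles). The squares run from 0.68 to 1.17 in the Dbp-phase arm and from -0.86 to -0.61 in the Arntl-phase arm, and the triangles of Per2, Per3 and Arntl lie within 0.11 of 0.

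The arms were also summed up within each mouse. For every array the mean log2 level of the 7 Dbp-phase genes and that of the 3 Arntl-phase genes were set relative to the PBS mean, and their difference is called the phase index here. It was 2.35, 1.00, 1.78, 1.81 and 2.02 in PhIP mice 1 to 5, against -0.59, -0.50 and 1.09 in PBS mice 1 to 3. PBS mouse 3 thus lay above PhIP mouse 2 and apart from the other PBS mice by more than 1.5 log2 units. The group means differed by 1.79, with an SD of 0.50 among PhIP mice (n = 5) and 0.94 among PBS mice (n = 3). The gain-700 scan took its high index from the Arntl-phase arm, where its mean was -2.20, beside 0.15 in the Dbp-phase arm. Without that scan the difference was 1.65, with an SD of 0.45 among PhIP mice (n = 4). The index is a description, as the members were chosen with these data known, and carries no test.

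**Figure D3:**
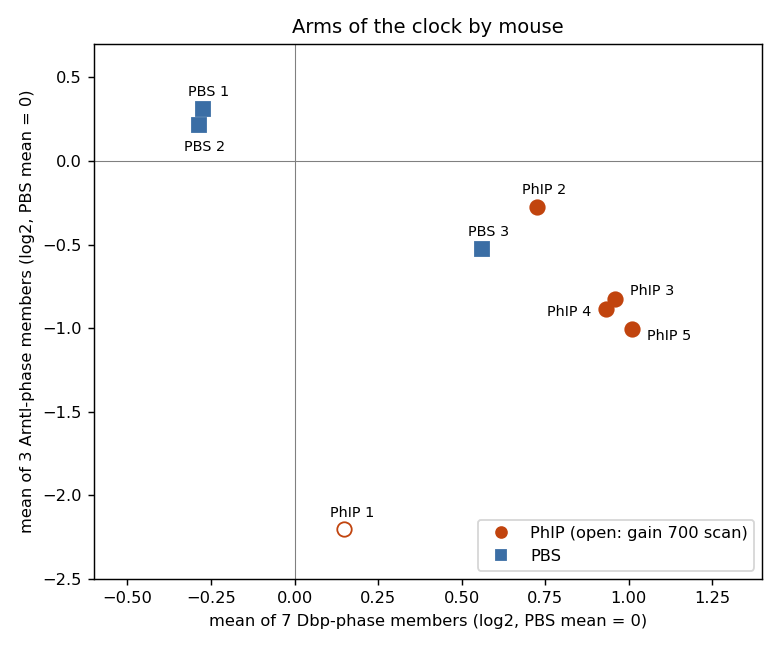
Mean log2 level of the 7 Dbp-phase members (horizontal axis) and of the 3 Arntl-phase members (vertical axis) in each mouse, relative to the mean of the 3 PBS mice. PBS mice 1 and 2 lie at upper left, PBS mouse 3 lies at 0.56 and -0.53 next to the PhIP mice, and the gain-700 scan (open circle) stands apart at 0.15 and -2.20.

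PBS mouse 3 differed from PBS mice 1 and 2 in the direction of the PhIP mice for all 10 members. Relative to the mean of the other PBS mice its log2 level was 1.83 higher for Per2, 1.27 higher for Per3, 1.17 higher for Dbp and -1.07 (lower) for Arntl. Differences of at least 1 log2 unit were thus seen for 4 of 10 members, beside 4.39% of all features. The difference was smallest for Nr1d1, at 0.10, which 77.4% of all features exceeded in size. For 5 of 10 members (Dbp, Per2, Arntl, Npas2 and Nfil3) PBS mouse 3 was inside the range of PhIP mice 2 to 5 while both other PBS mice were outside it on 1 side, and this held for 9.78% of all features. These values are from 1 mouse and carry no test.

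PBS mouse 3 was also the 1 control with a scan in the second number range, where it stood with all PhIP mice, and the 1 control whose scan was not re-dipped. Within the second range the comparison therefore rests on that mouse alone, which is assumed to vary like the PhIP mice. Against it the 4 PhIP mice scanned at the common gain had log2 fold changes of 0.62 ± 0.23 for Nr1d1, 0.54 ± 0.13 for Tef, 0.48 ± 0.18 for Nr1d2, 0.37 ± 0.25 for Dbp and 0.34 ± 0.16 for Per1. Per3 was at 0.10 ± 0.17, Per2 at -0.04 ± 0.49 and Arntl at -0.05 ± 0.49, each within its standard error of 0. Npas2 was at -0.41 ± 0.36 and Nfil3 at -0.20 ± 0.21. No member passed limma's adjusted threshold in this comparison, and the lowest adjusted p was 0.325, for Tef.

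In the same comparison the phase index differed by 0.57, and by 0.71 when the gain-700 scan was kept. Among scans that were not re-dipped (PhIP mice 2, 4 and 5 and PBS mouse 3) it differed by 0.52, and among re-dipped scans (PhIP mice 1 and 3, PBS mice 1 and 2) by 2.61. Without the gain-700 scan and PBS mouse 3, a fit chosen after seeing the data, the index difference was 2.20. Per3 then passed the threshold with a log2 fold change of 1.38 ± 0.14 (limma adjusted p = 0.0404), among 8 of 15617 features that passed. The mouse left out there, PBS mouse 3, is the control that lay next to the PhIP mice for Per3. Re-dipping was found in both groups, and with it as a block over all 8 arrays the index difference was 1.72 and the arm medians 0.68 and -1.27. Among controls, the number range cannot be told apart from the individual mouse, since PBS mouse 3 is the 1 control in the second range.

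Other probes of the same genes did not all give the same value in a fit where each probe was its own feature. Of the 18 probes 16 were found on at least 3 arrays; a second Per2 probe was found on 1 array and a second Npas2 probe on 2, and these were not tested. For Nr1d1, probe mMO035493 had a log2 fold change of 0.87 ± 0.18 and probe mMA035004 one of 0.05 ± 0.17 without the gain-700 scan, beside 0.69 for the probe used above. The second Nr1d2 probe, mMR030429, was at -0.11 ± 0.19, opposite in sign to the 0.76 of the probe used. The second Per3 probe was at 0.41 ± 0.20, with every PhIP mouse above all PBS mice, and the second Tef probe at 0.28 ± 0.29. The remaining Tef probe, found on 3 arrays, was at 0.35 ± 0.45 with all arrays and was not tested without the gain-700 scan. Dbp, Per1, Arntl and Nfil3 had 1 probe each. The Nr1d2 probe used above was chosen for its mean over all mice, and it was the brighter one in PhIP mice only: its mean log2 level was 8.71 in PhIP mice and 7.95 in PBS mice, while that of mMR030429 was 7.94 in PhIP mice and 8.05 in PBS mice. The 0.76 of Nr1d2 thus follows in part from that choice, as do the counts and the phase index that include this probe.

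Other genes of the loop, outside both arms, lay nearer to the median of all features. Of 11 listed genes 8 were tested, while Arntl2 and Cry1 were not found above background on any array and Ciart had no probe matched. Of the 8, 6 had a higher and 2 a lower mean in PhIP mice and 0 passed the test, with a median log2 fold change of 0.33 with all arrays and 0.21 without the gain-700 scan. Hlf, which encodes the third D-box activator beside DBP and TEF, had the largest value, 0.83 ± 0.39 with all arrays and 0.60 ± 0.26 without that scan. Its log2 levels were 6.16, 6.45, 5.44 and 6.20 in PhIP mice 2 to 5, against 5.43, 5.21 and 5.76 in PBS mice, so that the groups overlapped through PhIP mouse 4. Clock, the partner of ARNTL whose transcript cycles little in most tissues, had the smallest, at -0.17 ± 0.23, and was at -0.02 ± 0.11 without that scan.

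**Figure D4:**
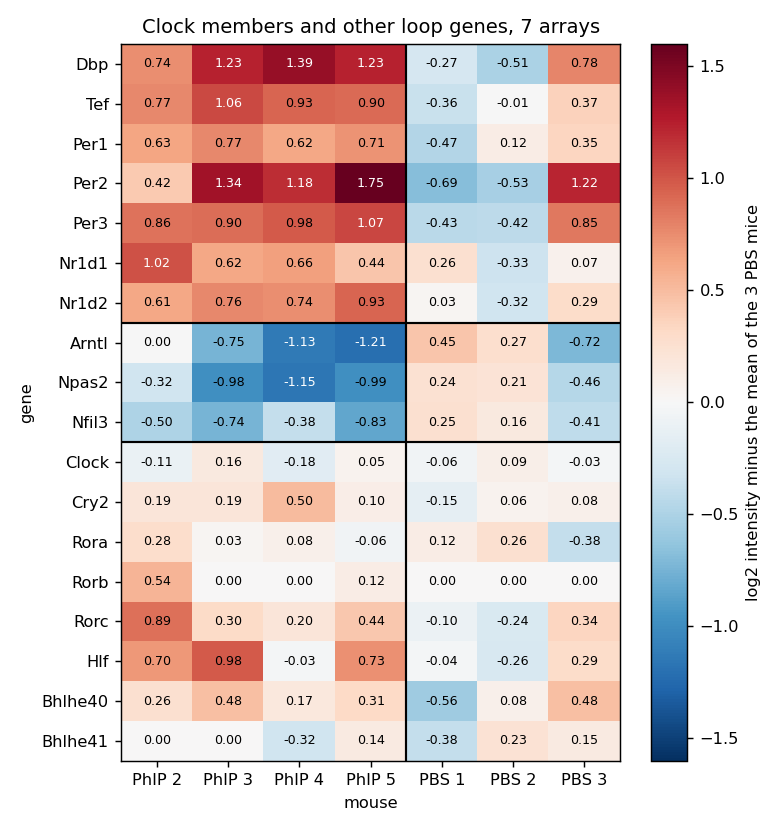
Log2 intensity of the 10 members and of the 8 other loop genes tested, minus the mean of the 3 PBS mice (colour and printed value), for PhIP mice 2 to 5 and PBS mice 1 to 3. PBS mouse 3 has positive values for all 7 Dbp-phase genes and negative ones for all 3 Arntl-phase genes, while Clock stays within 0.2 of 0 in all 7 mice.

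Kinases, ubiquitin ligases and other genes that set the stability or activity of clock proteins were close to the median of all features. Of 12 listed, 11 were tested and 0 passed, with a median log2 fold change of 0.02. Usp2, a deubiquitinase whose transcript follows the clock in many tissues, was the highest at 0.31 ± 0.27, and Btrc, an F-box protein that marks PER proteins for removal, the lowest at -0.37 ± 0.64. Without the gain-700 scan Btrc was at 0.15 ± 0.17.

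Among 12 output genes of the clock 11 were tested and 0 passed, with 5 higher and 6 lower and a median of -0.28 with all arrays. Without the gain-700 scan 8 were higher, 3 lower and the median was 0.17. At an unadjusted limma p below 0.05 there were 2 higher and 1 lower of the 11 with all arrays, beside 3.08% of all features. Without that scan there were 2 higher and 2 lower, beside 9.26%. Wee1, a mitosis-delaying kinase, and Klf9, a transcription factor, are named after their values were seen. Without that scan they were at 0.54 ± 0.15 and -0.35 ± 0.08, and their groups did not overlap, which held for 8.87% of all features. Pck1, a gluconeogenic enzyme, was at 1.28 ± 0.52 (0.95 ± 0.36 without that scan), and Tfrc, the transferrin receptor, at -1.30 ± 0.68 (-0.76 ± 0.28). Targets of the glucocorticoid receptor, a list that shares Per1 with the members, had a median of -0.28 over 9 of 10 genes tested, or 0.15 without that scan, and 0 passed. It shares 4 of its 9 tested genes (Tsc22d3, Klf9, Klf15 and Pdk4) with the output list, and with all arrays Pdk4 is the median gene of both. Fkbp5, a chaperone of that receptor and its usual readout, was at -0.62 ± 0.37 (-0.34 ± 0.19 without that scan) and Cdkn1c, a cell cycle inhibitor, at 0.46 ± 0.44 (0.15 ± 0.27).

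Markers of other cell types in the scrapings also differed in level between the groups, with 0 past the adjusted threshold, and their part in the results was not tested. In bulk RNA, fewer cells of a type and less RNA per cell cannot be told apart. Of 14 colon epithelium markers 8 were tested, among them Epcam, Cdh1, Krt8 and Krt18, while Krt20, Vil1, Cdx1 and Cdx2 were found on 0 arrays. Without the gain-700 scan the summed intensity of those 8 ran from 48373 to 53138 in PhIP mice, against 41111 to 45263 in PBS mice. Krt8 (log2 fold change 0.35) and Krt18 (0.43) were the markers of that list whose groups did not overlap, which held for 8.87% of all features. The list's median was 0.09. The sum of 10 fibroblast markers was 29140, 26382, 23954 and 22696 in PhIP mice 2 to 5, against 31290, 31328 and 49046 in PBS mice. All 10 had a lower mean in PhIP mice, and the groups did not overlap for Col1a1, Col1a2, Col3a1, Col6a1 and Dpt. PBS mouse 3 was the highest of all 7 in the fibroblast sum, and it was also the PBS mouse with the highest epithelial sum. The sum of 6 immune markers was 2926 to 4874 in PhIP mice, against 4612 to 8233 in PBS mice, so that the groups overlapped, and Ptprc was found on 0 arrays. All 6 had a lower mean in PhIP mice, and the groups did not overlap for Cd74 (-0.97) and H2-Ab1 (-0.81). The sum of 4 erythroid markers was 278 to 5295 in PhIP mice, against 10512 to 15192 in PBS mice. In PBS mice Hba-a1 makes up most of that sum, and both it and Hbb-b2 were lower in PhIP mice (log2 fold changes of -5.64 and -4.40), while Slc4a1 was at 0.42, with every PhIP mouse above all PBS mice, and Alas2 at -0.24 ± 0.33. Smooth muscle (8 markers), endothelium (5 markers) and enteric neurons and glia (6 markers) had sums that overlapped between the groups. They were 37891 to 49603 in PhIP mice and 44780 to 54182 in PBS mice for smooth muscle, and 1453 to 1865 in PhIP mice and 1534 to 1864 in PBS mice for endothelium. For neurons and glia they were 2393 to 3814 in PhIP mice and 1829 to 3426 in PBS mice. Of the smooth muscle markers 7 had a lower and 1 a higher mean in PhIP mice. Acta2, at -0.47 ± 0.07, was lower in every PhIP mouse than in all PBS mice.

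Among 10932 other named genes tested, those with the profile most like each arm were sought over the 7 arrays without the gain-700 scan, by the root mean square distance of log2 levels from the arm's mean profile. Car14, a membrane-bound carbonic anhydrase, was nearest to the Dbp-phase arm at 0.16, followed by Haus4 and Sfxn4 at 0.19 each. Srek1, a splicing regulator, was nearest to the Arntl-phase arm at 0.13, followed by Olfr747 at 0.16 and Dnajc3, a chaperone of the endoplasmic reticulum, at 0.20. Their log2 fold changes were 0.79, 0.77 and 0.92 on the Dbp side and -0.68, -0.62 and -0.74 on the Arntl side. Olfr747 was at the floor in 4 of these 7 mice, PBS mouse 3 included, so its likeness rests on few measured levels.

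The authors' deposited value table of log2 intensities held 8 columns, of which 7 equalled a scan apart from a constant. Its column for PhIP mouse 1 held the scan deposited for PhIP mouse 2, and its column for PhIP mouse 2 matched no scan. The scan that equalled this column at the most probes was that of PBS mouse 3, at 10.2% of them, with a correlation of 0.94. The gain-700 scan was not in the value table. In the unmatched column the phase index, relative to the table's PBS columns, was 0.56, below the 1.01 to 2.02 of the other 4 PhIP columns and below the 1.07 of PBS mouse 3. There Tef (11.62), Per1 (8.61), Nr1d1 (9.50) and Nr1d2 (8.79) were above all PBS columns in log2 level. Arntl, at 8.65, was also above all PBS columns, whose range was 7.20 to 8.38. How often a feature of any kind was above all PBS columns there is not given. Fitted as deposited, with that column as PhIP mouse 2, the table gave Tef a log2 fold change of 0.94 (limma adjusted p = 0.0354). Tef was the 1 member past the threshold, among 19 of 15875 features that passed. After quantile normalization Tef was at 0.86 (limma adjusted p = 0.129), and 11 of 15875 features passed.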

How the data were processed

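Per the labels' protocols, biotin-labelled cRNA from scraped colon epithelium was read in 1 colour with Alexa-647, 1 array per mouse. GenePix Pro 4.1.1.4, per the file headers, made the deposited intensities as the spot median minus local background, without normalization; quality flags are deposited as a score of 0 or more for found spots. The deposited log2 value table has no stated processing: set against the scans, 7 of its columns are log2 intensities with a constant added per array, and column medians run from 4.68 to 5.13. Whether that constant is a normalization is unknown.

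From the scanner intensities, 35078 mouse probes were kept (3802 other spots and 23 probes flagged bad left out), quantile normalized between arrays, floored at percentile 5 of found probes (21.3 with 8 arrays, 23.7 with 7) and set to log2. Features found on at least 3 arrays were tested. Probes were named through their RefSeq accession (23017 named, 12061 unnamed, none with several genes), and a gene with several probes was represented by its brightest one on average. The floor understates the change of dim genes. limma 3.58.1 in R 4.3.3 (lmFit, eBayes with trend, 2-sided, Benjamini-Hochberg over all features, threshold 0.05) compared PhIP with PBS. The number of arrays limits the precision. The fit was tested on simulated data. Alternatives changed the arrays, normalization, background, floor, filter, probe rule and blocks. The value table after quantile normalization, and blocks, ranges and left-out mice combined with leaving out the gain-700 scan, were chosen after seeing the data. Named genes are all members, the largest and smallest fold change of each pathway list, the cell markers needed for the check of the tissue, and 3 nearest profiles per arm. The members and lists were chosen with earlier results of these data known. Nothing in the labels says more on the replicates than a mouse number. Motifs and sequences come from RefSeq's promoter table, read with Python 3.11.15.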

Additional observations from a re-analysis of the deposited data

Results flagged for a closer look

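Within the 5 PhIP mice, 2 of 26 sets of values checked had a mouse flagged by an outlier rule, and chance alone gives about 1 in 20. Both came from the gain-700 scan of PhIP mouse 1. Per1 was at 5.562 on the log2 scale there, beside 8.39 to 8.54 in the other PhIP mice, and Per3 was at 6.576, beside 8.09 to 8.30. On that scan neither probe was found above background.

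The authors' deposited value table has 1 column that matches no scan, labelled as PhIP mouse 2. Its log2 levels were above those of all PBS columns for 5 members: Tef at 11.62 (PBS columns 10.45 to 11.11), Per1 at 8.61 (7.51 to 8.25), Nr1d1 at 9.5 (8.30 to 8.89), Nr1d2 at 8.79 (7.66 to 8.21) and Arntl at 8.65 (7.20 to 8.38). The other 5 members were not above all PBS columns there. The share of all features above all PBS columns is not given here, so the count cannot be read as particular to the members.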

How the results depend on the processing

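Under the alternatives, 316 of 334 fold changes of members kept their direction, and 2 passed the threshold. Per3 did so without PBS mouse 3 and the gain-700 scan, where 8 of 15617 features passed. Tef did so in the value table as deposited, where 19 of 15875 features passed. Dbp, Tef, Nr1d1, Nr1d2, Arntl, Npas2 and Nfil3 kept their direction in every alternative run. A sign near 0 also counts as kept, such as that of Arntl at its smallest, -0.05. With each probe its own feature, Nr1d2 was still read from the probe used above. Its other probe, at -0.75 with all arrays and -0.11 without the gain-700 scan, is not in these counts. Per1 turned to -0.069 under median scaling, -0.27 with the replicate block, -0.18 with re-dipping as a block, -0.54 within re-dipped arrays, and -0.24 both with the scan number range as a block and within its second range. Its values with 1 mouse left out, with or without the gain-700 scan, ran from -0.13 to 0.86, and below 0 they were -0.13 (PBS mouse 1), -0.022 (PhIP mouse 2), -0.057 (PhIP mouse 3), -0.019 (PhIP mouse 4) and -0.046 (PhIP mouse 5). In all of these the gain-700 scan was kept. Per2 turned to -0.10 within arrays not re-dipped, to -0.024 with the number range as a block or within it, and to -0.044 in both without the gain-700 scan. Per3 turned to -0.22 with the range as a block and within it.

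The count of features past the adjusted threshold was 2. It was 0 with cyclic loess, within re-dipped arrays, within arrays not re-dipped and within the second range, 1 with each probe its own feature, with a floor 4 times higher or with re-dipping as a block, 19 in the value table as deposited, 11 after its quantile normalization, and 22 with the range as a block and without the gain-700 scan. Leaving out 1 mouse gave 0 (PBS mouse 2 or 3, PhIP mouse 3 or 5) to 5 (PhIP mouse 1), and 2 to 12 when the gain-700 scan was also left out (12 without PhIP mouse 2). At an unadjusted p below 0.05 the fit with all arrays counted 489.

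The Dbp-phase median was 0.34 within arrays not re-dipped and 0.18 with the range as a block or within it. The Arntl-phase median was -1.93 within re-dipped arrays, -0.16 within arrays not re-dipped, and -0.20 within the second range, or with it as a block, without the gain-700 scan. The index difference was 2.61 within re-dipped arrays, 0.52 within those not re-dipped, 0.71 with the range as a block or within it, and 0.57 within it, or 0.56 with it as a block, without the gain-700 scan. Leaving out 1 mouse, with or without the gain-700 scan, gave a Dbp-phase median of 0.53 to 1.10, an Arntl-phase median of -1.40 to -0.55 and an index difference of 1.36 to 2.34, with the highest Dbp-phase median and index without PBS mouse 3. The cause of these changes was not tested.

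The labels do not say that the mouse numbers pair the samples. Same-numbered mice correlated at -0.09, 0.19 and -0.12, the first of these with PhIP mouse 1. So few values cannot show whether same-numbered mice share a block. With the replicate block 0 features passed, the arm medians were 0.73 and -1.25 and the index difference 1.71; without the gain-700 scan the blocked index difference was 1.09 and again 0 features passed. With features found on all 8 arrays only, 6 members drop out and no arm value was computed. On the gain-700 scan, dim members have only a bound.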
